A study of Homo sapiens with 8 samples.

Results

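The peaks described here lie at MDM2, PPM1D, CCNG1 and ZMAT3, 4 genes that p53 activates and whose products act back on the p53 pathway. The genes were picked as known p53 targets, with earlier results of these data known. Their peaks were then taken by position, as every peak with at least 1 bp inside a window around the gene with about 10 kb on each side. There were 21 of them among 24535 peaks in the 4 lists of the study. The study used ChIP-seq, the sequencing of DNA precipitated together with a protein, to map where p53 binds in U2OS cells. U2OS is an established line from a human bone tumour, and its own p53 is wild type per the labels' protocols. The conditions were 10 µM Nutlin-3, its solvent control 0.1% DMSO, 0.6 µg/ml doxorubicin, and its control of no treatment, each with 24 h in its label and 1 library precipitated with the p53 antibody DO-1. Nutlin-3 blocks the contact between MDM2 and p53, and doxorubicin is a topoisomerase poison that breaks DNA.

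p53 is a transcription factor that is kept scarce in unstressed cells, because MDM2, a ubiquitin ligase, marks it for degradation. When p53 accumulates it binds the MDM2 gene itself, which closes a negative feedback loop. PPM1D (also called WIP1) is a phosphatase that removes activating phosphates from p53 and from the kinases of the DNA damage response. CCNG1 encodes cyclin G1, which recruits protein phosphatase 2A to MDM2. ZMAT3 (also called WIG1 or PAG608) is a zinc finger protein that binds RNA, the p53 messenger among others.

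MDM2 is known for a second promoter at its first intron with a pair of p53 sites. A p53 site consists of 2 half-sites of 10 bases that may be set apart by 0 to 13 bases. Sequence at the gene starts is shown because all 21 peaks lay near the expected starts of the genes. It comes from RefSeq promoters on GRCh38.p14 (250 bases before to 50 after an annotated start), where 9 sequences matched the 4 genes. The peaks are on hg18, so the sequences and the peaks were not placed on each other. Peak middles lay up to 3.10 kb past the expected starts, so the sequences may not reach the bases under a peak. A pair found or not found in them thus does not describe the peaks. In the plus strand sequence of MDM2 at chr12:68808767-68809066 and that of CCNG1 at chr5:163437321-163437620, capitals mark the pair of half-sites found.
MDM2, internal start: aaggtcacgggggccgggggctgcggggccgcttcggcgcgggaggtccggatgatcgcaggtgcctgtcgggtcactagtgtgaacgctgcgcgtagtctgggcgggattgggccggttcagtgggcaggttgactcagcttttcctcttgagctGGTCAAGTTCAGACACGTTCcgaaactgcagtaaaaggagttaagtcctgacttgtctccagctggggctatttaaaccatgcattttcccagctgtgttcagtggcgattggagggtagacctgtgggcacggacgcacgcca
CCNG1: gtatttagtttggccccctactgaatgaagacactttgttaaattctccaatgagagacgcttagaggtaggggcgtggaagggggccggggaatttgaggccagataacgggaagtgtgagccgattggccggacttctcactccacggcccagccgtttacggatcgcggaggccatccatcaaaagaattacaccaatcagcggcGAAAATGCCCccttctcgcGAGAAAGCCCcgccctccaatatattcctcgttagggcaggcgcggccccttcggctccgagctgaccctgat

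No half-site that matches the consensus in full was found in the 9 sequences, against 6.63% of all 35116 promoters. The consensus is its own reverse complement, so the search covers both strands. With up to 2 mismatches over a pair, a pair was found in 2 of the 4 MDM2 sequences and in both of CCNG1. The 1 sequence of PPM1D and the 2 of ZMAT3 held none. Of all promoters, 7.82% held such a pair. The 2 half-sites of the MDM2 pair adjoin, and the pair begins 94 bases before the start. Those of CCNG1 are 9 bases apart, and the pair begins 42 bases before the start. Both half-sites of CCNG1 have an A where the consensus has its fixed C. Both of MDM2 keep that C and have their mismatches at other bases. The sequences that hold a pair overlap each other within each gene, so they show the same pair. Only the best pair of a sequence was marked, and pairs with more than 2 mismatches were not counted. The marked pair of half-sites at MDM2 makes up 1 possible p53 site, whereas the known pair there is 2 sites. Whether the marked site is 1 of that known pair was not examined. Such a match describes letters and is not a measured site.

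The 4 lists gave positions and no height or score. The Nutlin-3 list had 18159 peaks, the DMSO list 2793, the doxorubicin list 3087 and the untreated list 496, with a median width of 60 bp in each. The read depth behind the lists is unknown, so an absent peak says that none was listed and not that p53 was absent. Each condition had a single library, so differences between conditions are given as descriptions, without a test. Widths were multiples of 20 bp in all 24535 peaks, so bounds are known to about 20 bp. All positions are on hg18.

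p53 peaks were listed at every one of the 4 genes with Nutlin-3, with DMSO and with doxorubicin, and at none of them in untreated cells. Nutlin-3 had 12 peaks in the windows, against 5 with DMSO. Doxorubicin had 4, against 0 with no treatment. At MDM2 there were 3 peaks with Nutlin-3, 2 with DMSO and 1 with doxorubicin. PPM1D and CCNG1 each had 2 with Nutlin-3, 1 with DMSO and 1 with doxorubicin. ZMAT3 had 5 with Nutlin-3, 1 with DMSO and 1 with doxorubicin. As deposited, Nutlin-3 thus had 1 peak more than DMSO at MDM2, PPM1D and CCNG1 and 4 more at ZMAT3. These differences rest on how closely set peaks are counted. When peaks of a list up to 500 bp apart were merged, Nutlin-3 and DMSO had 5 peaks each, with 1 against 2 at MDM2, 1 against 1 at PPM1D and at CCNG1, and 2 against 1 at ZMAT3. When peaks of 40 bp were left out, Nutlin-3 had 4 against 1 with DMSO, with 0 against 0 at MDM2, 1 against 0 at PPM1D, 0 against 1 at CCNG1 and 3 against 0 at ZMAT3. As a share of its list, the windows held 0.0661% of Nutlin-3 peaks, 0.179% of DMSO peaks and 0.130% of doxorubicin peaks.

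**Figure D1:**
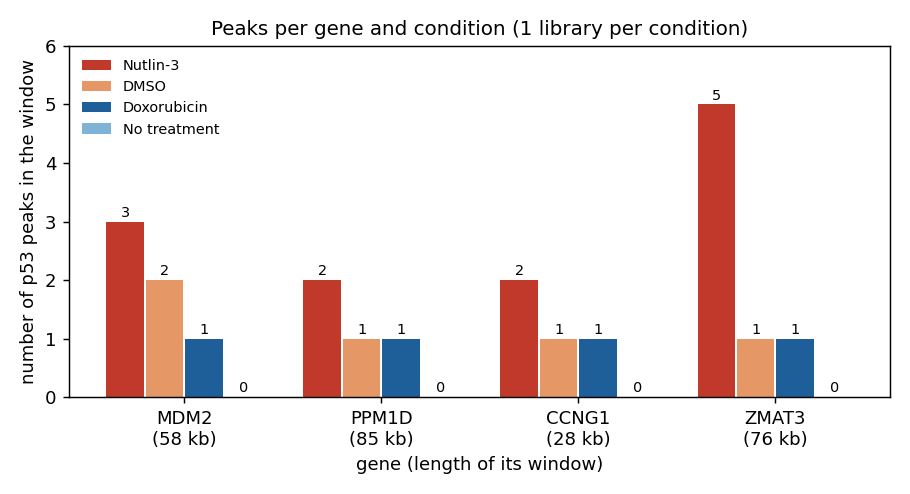
Number of p53 peaks (y axis) in the window of each gene (x axis, with the window's length in kb) for Nutlin-3, DMSO, doxorubicin and no treatment, 1 library each. ZMAT3 has the highest bar, 5 peaks with Nutlin-3, and the untreated list stands at 0 for all 4 genes.

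Windows with peaks of these 3 conditions and none from untreated cells were rare along the chromosomes. When the stretch from the first to the last peak of every chromosome was divided into consecutive pieces as long as the window of a gene, 2.73% of pieces of 58 kb (MDM2), 3.98% of 85 kb (PPM1D), 1.34% of 28 kb (CCNG1) and 3.58% of 76 kb (ZMAT3) held that combination. At least as many Nutlin-3 peaks as at the gene were held by 2.94% of pieces for MDM2 (at least 3 peaks), 11.8% for PPM1D (at least 2), 3.13% for CCNG1 (at least 2) and 0.942% for ZMAT3 (at least 5). An untreated peak was found in 0.633% of pieces of 58 kb, 0.891% of 85 kb, 0.322% of 28 kb and 0.809% of 76 kb, so a lack of untreated peaks at 4 genes is the usual state of that list. The 4 genes were picked as known p53 targets, with earlier results of these data known, and the pieces were not picked. These shares are thus a background and not a test of the genes.

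The peaks of each gene sat in a short stretch by the expected start of the gene, and the rest of each window was empty. The start was taken as 10 kb inside the window, at the left for MDM2, PPM1D and CCNG1 on the plus strand and at the right for ZMAT3 on the minus strand. Windows were given in whole kb, so distances from it hold to about 1 kb. Peak middles lay 0.07 to 1.01 kb past the expected start at MDM2, 0.01 to 0.49 kb past it at PPM1D, 0.45 to 0.71 kb at CCNG1 and 1.10 to 3.10 kb at ZMAT3. All peaks of a gene together spanned 980 bp at MDM2, 640 bp at PPM1D, 320 bp at CCNG1 and 2140 bp at ZMAT3. The other 57.0 kb, 84.4 kb, 27.7 kb and 73.9 kb of these windows held no peak in any list. By RefSeq, the stretch of MDM2 with its flanks also touches CPM and a pseudogene, that of CCNG1 touches NUDCD2, HMMR and a long noncoding RNA gene, and that of PPM1D touches a pseudogene. No annotation of hg18 was used here, so exon and intron were not assigned.

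Each gene had 1 region, and no more, where peaks of Nutlin-3, DMSO and doxorubicin joined by overlap. Overlapping and adjoining peaks of the 4 lists formed 13 regions in the windows. Of these, 4 held Nutlin-3, DMSO and doxorubicin, 8 held Nutlin-3 alone and 1 held DMSO alone. Over the whole series the same classes made up 7.04%, 76.0% and 2.93% of 19877 regions. None of the 13 held doxorubicin without DMSO, a class that made up 8.30% of the regions of the series.

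**Figure D2:**
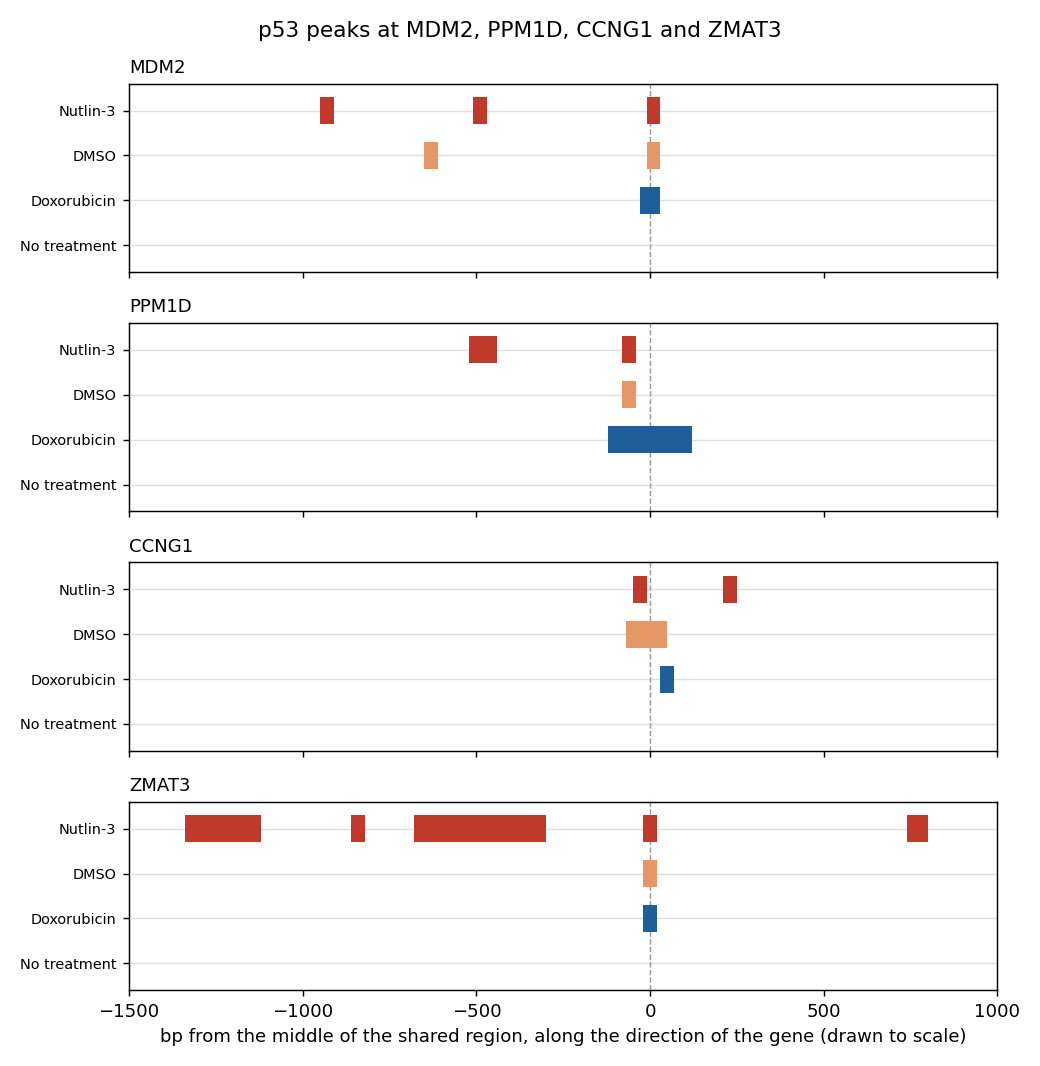
Peaks at the 4 genes drawn to scale as boxes, 1 row per condition; the x axis is the distance in bp from the middle of the region shared by Nutlin-3, DMSO and doxorubicin, with the direction of the gene from left to right. The boxes of 3 conditions stack near 0 at every gene, Nutlin-3 adds boxes to the left at MDM2 and PPM1D, to the right at CCNG1 and on both sides at ZMAT3, and the untreated row is empty.

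At MDM2, the shared region lay on chromosome 12 from 67488971 to 67489031, at the far end of the cluster in the direction of the gene. Nutlin-3 and DMSO had the same 40 bp peak there, from 67488991 to 67489031. The doxorubicin peak ended at the same base and began 20 bp earlier, which made it 60 bp wide. The other MDM2 peaks all lay on the side towards the start of the gene, and each was in 1 list. Nutlin-3 had a 40 bp peak from 67488491 to 67488531, 440 bp before the shared region, and another from 67488051 to 67488091, 880 bp before it. DMSO had a 40 bp peak from 67488351 to 67488391, between these, that overlapped no Nutlin-3 peak. It was the only peak of a control condition in the windows that no treatment list overlapped. Doxorubicin had no peak in this stretch of MDM2.

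At PPM1D, the shared region lay on chromosome 17 from 56032371 to 56032611. Nutlin-3 and DMSO again had the same 40 bp peak, from 56032411 to 56032451. The doxorubicin peak covered it and was 240 bp wide, extending 40 bp further on the left and 160 bp further on the right. A width of at least 240 bp was reached by 8.68% of doxorubicin peaks. Nutlin-3 had a second peak of 80 bp from 56031971 to 56032051, 320 bp before the shared region on the side of the gene start.

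At CCNG1, the shared region lay on chromosome 5 from 162797411 to 162797551 and was held together by the DMSO peak. That peak, from 162797411 to 162797531, was 120 bp wide, a width reached by 22.2% of DMSO peaks. The Nutlin-3 peak, from 162797431 to 162797471, lay wholly inside it. The doxorubicin peak, from 162797511 to 162797551, shared 20 bp with the DMSO peak and was separated from the Nutlin-3 peak by 40 bp. The middles of the Nutlin-3 and doxorubicin peaks were 80 bp apart, 4 steps of the grid on which bounds are known. The doxorubicin peak of CCNG1 was thus the 1 of 4 that no Nutlin-3 peak overlapped, against 36.5% of the doxorubicin list. A second Nutlin-3 peak of 40 bp, from 162797691 to 162797731, began 140 bp after the shared region, further into the gene.

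At ZMAT3, 1 peak of 40 bp on chromosome 3 from 180270651 to 180270691 had the same bounds with Nutlin-3, DMSO and doxorubicin. Identical bounds in these 3 lists occurred in 3.93% of the 1400 regions that they share over the series, and in 1 of the 4 here. Nutlin-3 added 4 peaks around it, and they held the widest peak at any of the 4 genes. That peak, from 180270971 to 180271351, was 380 bp wide, and 0.920% of Nutlin-3 peaks were at least as wide. It began 280 bp from the shared region on the side of the gene start. Further in that direction lay a 40 bp peak from 180271491 to 180271531 and a 220 bp peak from 180271791 to 180272011, a width reached by 5.69% of Nutlin-3 peaks. The remaining 60 bp peak, from 180269871 to 180269931, lay 720 bp from the shared region on the side away from the start.

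As deposited, the Nutlin-3 list differed from that of its solvent at these genes by added peaks beside a shared site, and by the lack of 1 DMSO peak at MDM2. With peaks of a list up to 500 bp apart merged, the regions of Nutlin-3 alone numbered 1 in place of 8 and those of DMSO alone 0 in place of 1. With midpoints within 200 bp as the rule, Nutlin-3 matched 5 of 5 DMSO peaks. All 4 shared regions had a region of Nutlin-3 alone within 1000 bp, against 42.9% of the 1400 regions shared by these 3 lists. Of the 8 regions of Nutlin-3 alone, 7 lay within 1000 bp of a shared region, against 5.15% of all 15116 regions of Nutlin-3 alone. The eighth was the 220 bp peak of ZMAT3, 1100 bp away. All 8 lie in windows that hold a shared region, a condition not set on the 15116, so 7 of 8 and 5.15% are not like for like. All 12 Nutlin-3 peaks had another Nutlin-3 peak within 1000 bp, against 24.1% of the list. The regions of Nutlin-3 alone were 40 to 380 bp wide, with 4 of the 8 at 40 bp, against 31.1% of all regions of Nutlin-3 alone. Both at MDM2, the 1 at PPM1D and 3 of the 4 at ZMAT3 lay on the side of the gene start, and the 1 at CCNG1 and 1 at ZMAT3 on the other side. The distance of 1000 bp was chosen after the peaks were seen, and peaks beside each other at 1 gene are not independent.

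At the shared sites most peaks had the smallest width listed, 40 bp. The Nutlin-3 peak had it at all 4 genes, as in 61.6% of the 1400 shared regions of the series, and the DMSO peak had it at MDM2, PPM1D and ZMAT3. The doxorubicin peak alone was the widest at MDM2 and PPM1D, against 25.3% of the 1400. At MDM2 it was 60 bp wide against 40 bp, which is 1 step of the 20 bp grid on which bounds are known. The 25.3% also counts differences of 1 step. The DMSO peak alone was the widest at CCNG1, against 24.4%. Nutlin-3 alone was the widest at none of the 4, against 19.4%. Peaks of 40 bp made up 8 of the 12 Nutlin-3 peaks against 34.6% of the list, 4 of the 5 DMSO peaks against 47.5%, and 2 of the 4 doxorubicin peaks against 43.5%. When peaks of 40 bp were left out, no shared region remained at any gene and 4 Nutlin-3, 1 DMSO and 2 doxorubicin peaks were left.

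Sharing between conditions can be set beside that of the whole lists. Intervals are exact 95% binomial (Clopper-Pearson), cover counting error only and treat peaks as independent. With an overlap of at least 1 bp, 4 of 12 Nutlin-3 peaks (33.3%, 9.92 to 65.1) were overlapped by DMSO, against 10.9% of the list. In the other direction Nutlin-3 overlapped 4 of 5 DMSO peaks (80.0%, 28.4 to 99.5), against 70.4% of the list. All 4 doxorubicin peaks (39.8 to 100%) were overlapped by DMSO, which is not its control, against 40.6% of the list, and 4 of 5 DMSO peaks were overlapped by doxorubicin, against 45.0%. Nutlin-3 overlapped 3 of 4 doxorubicin peaks (75.0%, 19.4 to 99.4), against 63.5%, and doxorubicin overlapped 3 of 12 Nutlin-3 peaks (25.0%, 5.49 to 57.2), against 10.8%. Untreated peaks overlapped 0 of 12 Nutlin-3 peaks against 0.187% of the list, 0 of 5 DMSO peaks against 0.215%, and 0 of 4 doxorubicin peaks against 5.54%. The value of the whole list lay inside the interval of the window peaks for all 9 pairs, so none of these shares can be told from that of its list at this number of peaks. It came closest to a bound for doxorubicin peaks in DMSO (40.6% against a lower bound of 39.8%) and Nutlin-3 peaks in DMSO (10.9% against 9.92%).

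**Figure D3:**
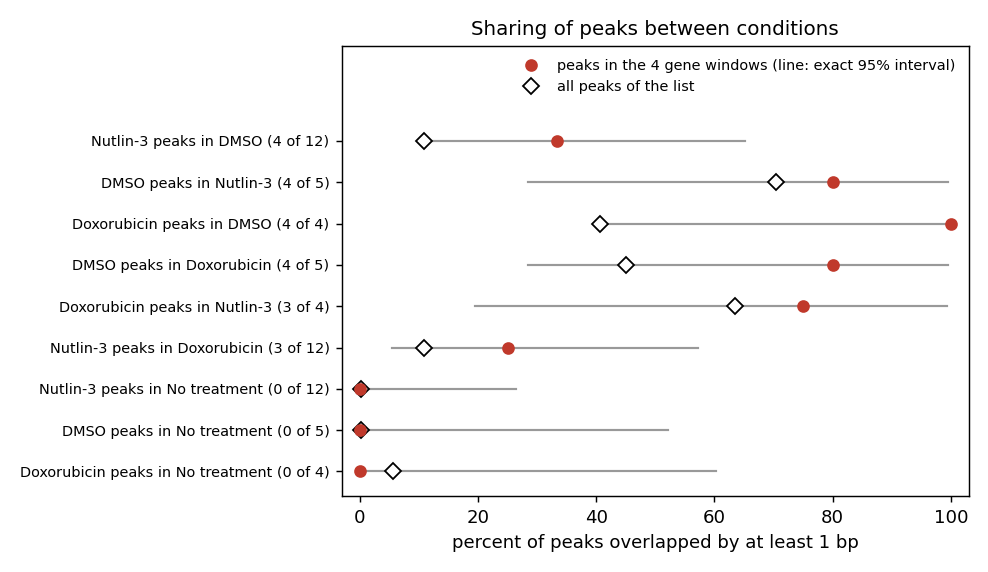
Percent of the peaks of a list that overlap a peak of another list by at least 1 bp (x axis), for each pair of lists (y axis). Red points are the peaks in the 4 windows with exact 95% binomial intervals as grey lines, and open diamonds are all peaks of the list; every diamond lies within the line of its pair, and the points stand above the diamonds for the 6 pairs among Nutlin-3, DMSO and doxorubicin.

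One site of the same 3 lists lay near a window without being counted. Outside the MDM2 window, 10.2 kb before it on chromosome 12, Nutlin-3 had a peak of 220 bp from 67467591 to 67467811, DMSO one of 40 bp from 67467751 to 67467791 and doxorubicin one of 40 bp from 67467771 to 67467811. These form 1 region about 20 kb from the MDM2 cluster, beyond the widened window too. Just inside, the outermost MDM2 peak was the Nutlin-3 peak from 67488051, about 10 kb from the edge. At the other genes the nearest outside peaks of Nutlin-3, DMSO and doxorubicin lay 45.0 to 887 kb from the window. The untreated peak nearest to any window lay 15.9 kb before that of PPM1D, from 56006051 to 56006091, and no other list overlapped it. For CCNG1, MDM2 and ZMAT3 the nearest untreated peak was 3525, 17204 and 19102 kb away.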

How the data were processed

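The authors deposited a list of called peaks for each ChIP library, with no pooled list and no other measure: each holds 3 columns, the chromosome, start and end in bp. Per the submitters' processing notes, the build was hg18 and CASAVA and Bowtie 0.12.2 were used. The program that called the peaks, its threshold and its use of the inputs were not given in the sources used here. The inputs were not analysed here. Starts and ends are printed as deposited, the width is end minus start, and whether counting begins at 0 or 1 leaves 1 bp open. A number of peaks can move with the depth of a library and with the caller as well as with binding, and depth is unknown.

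Overlaps, merged regions and intervals were computed in Python 3.11.15 with scipy 1.17.1 and tested on simulated data. All members and lists were chosen with earlier results of these data known. Every peak in a window is named. No other feedback gene could be counted without an hg18 annotation. The pair of half-sites with mismatches, the distance of 1000 bp and the comparisons of widths were chosen after the peaks were seen. Alternatives changed the window, the overlap, the smallest peaks, the merging and the length of the lists.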

Additional observations from a re-analysis of the deposited data

How the results depend on the processing

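No paired analysis was possible because each condition had 1 ChIP library, and for the same reason leaving out a replicate was not run. No score was available for a stricter threshold, and the share of untreated peaks in doxorubicin had no peak to count. Trimming each window to the gene span or widening it by 10 kb on each side changed 0 of 68 values. The counts of untreated peaks and the share of doxorubicin peaks found untreated stayed at 0 under every alternative. Over the main results, 63 of 106 alternative values kept within 1.5 times the reported count or width, or within the interval of a share, and 43 moved. Over counts of single genes, 58 of 80 kept within 1.5 times and 22 moved. The kept values of these tallies include the 68 of the window alternatives. They also include the untreated counts of 0, which removing or merging peaks could not raise. Most moves follow from the construction, since 14 of the 21 peaks were 40 bp wide.

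Without peaks of 40 bp, Nutlin-3 had 4 peaks, DMSO 1 and doxorubicin 2, with median widths of 150, 120 and 150 bp in place of 40, 40 and 50 bp. There were 7 regions, 4 of Nutlin-3 alone and 0 shared by 3 lists, and all 6 shares between Nutlin-3, DMSO and doxorubicin were 0%. In the widest 50% of each list, with ties ordered by position, Nutlin-3 had 3 peaks, DMSO 1 and doxorubicin 2, with median widths of 220, 120 and 150 bp, 6 regions, 3 of Nutlin-3 alone, 0 shared by 3 lists, and the same 6 shares at 0%. With peaks up to 500 bp apart merged, Nutlin-3 had 5 peaks against 5 with DMSO, doxorubicin had 4, the median Nutlin-3 width was 480 bp, and there were 5 regions, 1 of Nutlin-3 alone, 0 of DMSO alone and 4 shared.

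With midpoints within 200 bp, Nutlin-3 matched 100% of DMSO and 100% of doxorubicin peaks. Within 1000 bp, Nutlin-3 matched 100% of both, doxorubicin matched 100% of DMSO peaks, and DMSO and doxorubicin each matched 91.7% of Nutlin-3 peaks. A reciprocal overlap of at least 50% kept every share inside its interval, but the intervals are wide and the shares between Nutlin-3, DMSO and doxorubicin fell. Doxorubicin peaks matched by DMSO went from 100% to 50% (2 of 4), and DMSO peaks matched by doxorubicin from 80% to 40% (2 of 5). Nutlin-3 matched 60% of DMSO peaks in place of 80%, and 50% of doxorubicin peaks in place of 75%. Of Nutlin-3 peaks, DMSO matched 25% in place of 33.3%, and doxorubicin 16.7% in place of 25%. The promoter search gave 0 sequences with an exact half-site and 0 with an exact pair, and 4 with a pair of up to 2 mismatches.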
